A study of Mus musculus with 10 samples.

Results

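The genes described here encode the enzymes of cholesterol and fatty acid synthesis, the factors that set their transcription and the proteins of sterol efflux. They were taken from a list of 32 genes drawn up by function. Of these, 29 had a probe set that carried a single gene symbol, out of 22180 genes measured, and Idi1, Scd2 and Nr1h2 had none and were not analysed here. They fall into 3 regulators of the sterol response, 15 enzymes of cholesterol synthesis, 7 enzymes of fatty acid synthesis and 4 genes of sterol efflux and of the liver X receptor (LXR). Ch25h had 2 such probe sets, of which the one with the highest mean was used, and each of the other members had 1.

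Messenger RNA was measured on 10 arrays, 1 for each culture of mouse T helper cells. The cultures were started from CD4+ lymphocytes isolated from the spleens of wild-type female Balb/c mice, aged 10 to 14 weeks. Anti-CD3 at 4 µg/ml and anti-CD28 at 30 ng/ml, antibodies that activate T cells, were present in every culture, and new medium was given at 72 h. The Th0 control (3 arrays) had nothing else. Th2 cultures (3 arrays) were given IL-4 at 100 ng/ml and Th17 cultures (4 arrays) 20 ng/ml of IL-6, 5 ng/ml of TGFβ and 10 ng/ml of IL-23, and both of these had an anti-IFNγ antibody at 10 µg/ml that Th0 lacked. When cells were harvested is not stated in the sources used here. Titles describe biological replicates without saying whether different animals were used. The p-values therefore speak only for the spread among these 10 samples, which may in part be technical.

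Cells make cholesterol from acetyl-CoA through mevalonate, farnesyl diphosphate, squalene and lanosterol, and fatty acids from the same precursor through malonyl-CoA. When membrane sterol is low, the SREBP transcription factors are released from the endoplasmic reticulum and switch on the genes of both pathways, whereas oxysterols activate LXR, which switches on the genes that export sterol. Activated T cells use both pathways to build membrane as they divide, and intermediates of late sterol synthesis are known as ligands of RORγt, the factor that directs Th17 cells.

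All values are log2 expression, so a difference of 1 is a doubling, and array values are listed in order of replicate number. The 8 T cell markers measured averaged between 8.53 and 9.68 on every array. Il17f, a cytokine of Th17 cells, ranged from 9.55 to 10.94 in Th17 and from 4.98 to 6.66 elsewhere, and was higher in Th17 than in Th0 (limma adjusted p = 0.000676) and than in Th2 (limma adjusted p = 0.00321). Of the 4 Th17 markers measured, limma called 2 against Th0 and 1 against Th2. Il17a was not called (limma adjusted p = 0.18 against Th0 and 0.328 against Th2). It ranged from 10.14 to 10.54 in Th17 and reached 7.55 in Th0 and 7.89 in Th2. The Th2 cytokine gene Il4 overlapped between Th2 (8.54 to 9.32) and Th0 (7.45 to 8.82). The mean of 4 Th2 markers was 7.99 to 8.50 in Th2 and 7.40 to 7.98 in Th0, so the groups nearly met. Its members did not share 1 direction. The group mean in Th2 minus that in Th0 was 1.3 for Il5, whose arrays did not overlap. It was 0.71 for Il4, 0.27 for Il13 and -0.23 for Gata3, all with overlap. Limma called 0 of the 4 between Th2 and Th0 at an adjusted p under 0.05. Th2 replicates 2 and 3 and Th17 replicate 4 lay at 37.5 to 55.8 on the first principal component, which held 35.8% of the variance, and the other 7 arrays lay at -0.96 or below. The interquartile range over genes, with 1 probe set each, was lowest on Th2 replicate 3 (1.95) and highest on Th2 replicate 1 (2.69). Over all probe sets it was 1.95 and 2.41 on the same 2 arrays. RMA normalizes before it summarizes the probe sets, so equal ranges are not guaranteed.

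None of the lipid genes passed the test between culture conditions when all genes were tested together. In Th2 against Th0, limma called 0 of 29 members at an adjusted p under 0.05, and 0.0% of all genes. In Th17 against Th0 it called 0 of 29 members and 0.104% of all genes, and in Th17 against Th2 0 of 29 members and 0.0766% of all genes. An unadjusted p under 0.05 was met by 4, 4 and 3 members in the same order, which is 13.8%, 13.8% and 10.3% of the list beside 6.34%, 5.17% and 6.25% of all genes. With 29 members, a single gene makes 3.45% of the list. The difference of group means is given below with its SE and, for the members that stood out, its 95% confidence interval, since these intervals show how large a difference could have been missed. In bulk samples such as these, fewer cells that make an mRNA and less of the mRNA in each cell cannot be told apart.

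**Figure D1:**
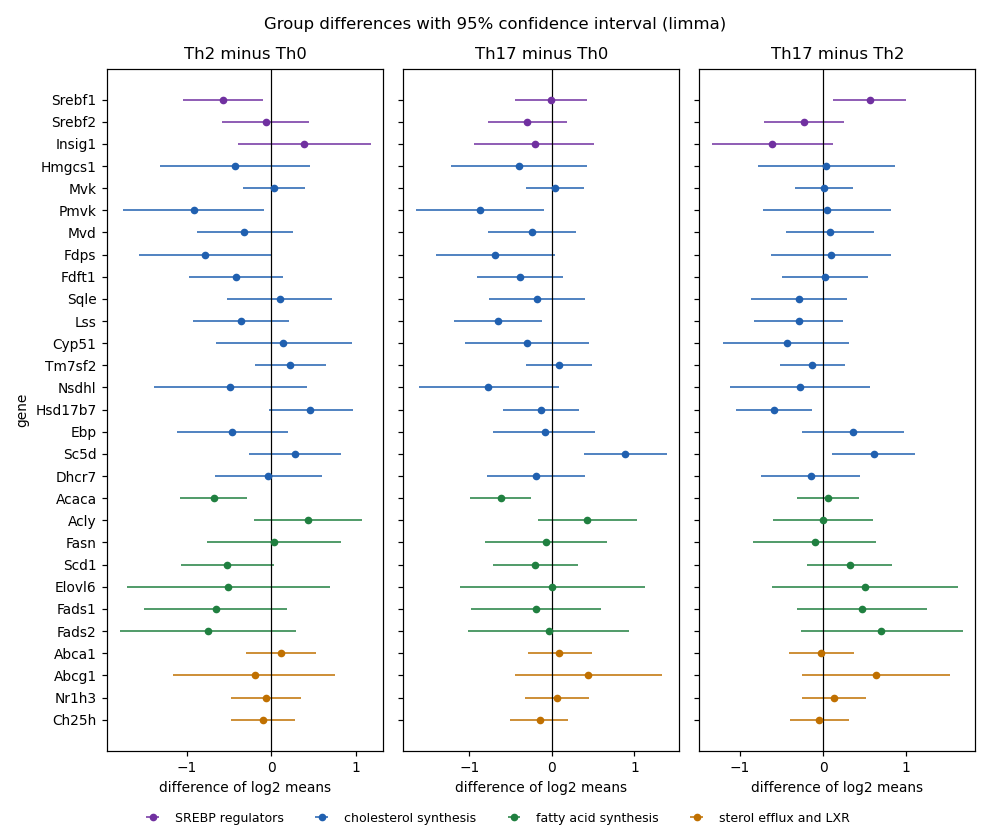
Differences of group means on the log2 scale (x axis) with their 95% confidence intervals from the limma fit, for the 29 genes (y axis), with a panel for each pair of cultures. Most intervals cross 0. Those of Acaca lie below 0 in both comparisons with Th0, and that of Sc5d lies above 0 in both comparisons of Th17.

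The sterol response acts on promoters, and the upstream windows of 3 members are printed because they hold the motifs of SREBP and its partner factors, or belong to the cholesterol gene that stood highest in Th17. The sequences are the 250 bases before the annotated start of the gene, on the gene's own strand, from RefSeq on build GRCm38.p6. Capitals mark every match, on either strand, to the sterol response element TCACNCCAC or its core CACNCCAC, the box CCAAT bound by NF-Y, the GC box GGGCGG bound by Sp1 and the E-box CACGTG.
Hmgcs1 promoter, chr13:119690101-119690350, + strand: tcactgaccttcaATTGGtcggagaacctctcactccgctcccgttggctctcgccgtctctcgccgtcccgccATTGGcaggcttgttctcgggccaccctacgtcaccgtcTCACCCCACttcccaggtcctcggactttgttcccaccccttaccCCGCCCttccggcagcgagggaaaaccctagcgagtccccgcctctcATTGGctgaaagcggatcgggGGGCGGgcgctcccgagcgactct
Insig1 promoter, chr5:28071162-28071411, + strand: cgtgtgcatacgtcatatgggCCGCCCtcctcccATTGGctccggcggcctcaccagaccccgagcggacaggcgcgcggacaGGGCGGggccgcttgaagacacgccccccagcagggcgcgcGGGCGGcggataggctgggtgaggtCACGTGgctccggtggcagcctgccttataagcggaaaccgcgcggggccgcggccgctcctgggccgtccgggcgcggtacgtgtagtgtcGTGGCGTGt
Sc5d promoter, chr9:42264301-42264550, - strand: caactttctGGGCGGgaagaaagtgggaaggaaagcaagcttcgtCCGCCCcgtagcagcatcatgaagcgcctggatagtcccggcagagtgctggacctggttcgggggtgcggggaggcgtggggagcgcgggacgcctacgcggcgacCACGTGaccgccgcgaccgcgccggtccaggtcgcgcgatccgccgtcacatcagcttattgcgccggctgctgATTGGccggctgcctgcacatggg

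The Hmgcs1 window held the full element as TCACCCCAC, 137 to 129 bases before the start, with 3 CCAAT boxes and 2 GC boxes around it. The Insig1 window held a core on the opposite strand, GTGGCGTG, 9 to 2 bases before the start, with an E-box. The Sc5d window held no match to the element or its core, but an E-box, 2 GC boxes and a CCAAT box. Windows were found for 25 of the 32 listed genes, Idi1 among them. The other 7 (Sqle, Fdps, Fdft1, Fads1, Scd1, Scd2 and Abcg1) had none and were not searched. The 25 genes have 31 windows, since some have several starts. A full element lay in 1 of the 31 windows, that of Hmgcs1, and in 1.05% of the 32851 windows of all genes. The core, which every full element contains, lay in 2 of 31 (Hmgcs1 and Insig1) and in 5.29% of all windows. CCAAT lay in 18 of 31 and in 33.8% of all windows, and GGGCGG in 20 of 31 and in 32.7%. The E-box lay in 5 of 31 (Abca1, Dhcr7, Hsd17b7, Insig1 and Sc5d) and in 6.02%. The LXR element, AGGTCA repeated after 4 bases of any kind, lay in 0 of 31 and in 0.0152%. A match is a description of these letters and not a measured site. Only these letters, within the 250 bases before the start, were searched. A window without a match therefore does not show that the gene lacks such a site.

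Among the regulators, Srebf1 was lower in Th2 cultures than in Th0 and Th17 cultures on every array. Srebf1 encodes SREBP1, the SREBP that acts mainly on fatty acid genes. It measured 5.61, 6.18 and 5.36 on the Th0 arrays, 5.33, 5.24 and 4.87 on the Th2 arrays and 5.77, 5.80, 5.58 and 5.68 on the Th17 arrays. The Th2 arrays lay below all others, although the highest Th2 array and the lowest Th0 array nearly met, while Th0 and Th17 overlapped. The difference was -0.57 ± 0.21 (SE; 95% confidence interval -1.04 to -0.10) for Th2 minus Th0 and 0.56 ± 0.20 (0.12 to 1.00) for Th17 minus Th2, a 1.47-fold higher mean in Th17. Neither passed the test (limma adjusted p = 0.767 and 0.66). Over alternative settings the first stayed between -0.74 and -0.33 and the second between 0.38 and 0.65. The difference of Th17 from Th0 was -0.01 ± 0.20.

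Srebf2 encodes SREBP2, the SREBP that acts mainly on cholesterol genes. It measured 7.05, 7.86 and 7.35 in Th0, 7.64, 7.35 and 7.06 in Th2 and 7.36, 7.21, 7.06 and 6.85 in Th17. The groups overlapped, with Th0 replicate 2 the highest array, and the means were 7.42 ± 0.41 (SD, n = 3), 7.35 ± 0.29 (SD, n = 3) and 7.12 ± 0.22 (SD, n = 4). Insig1 encodes the protein that holds SREBP in the endoplasmic reticulum when sterol is plentiful and is itself an SREBP target. It measured 6.19, 7.42 and 6.51 in Th0, 6.91, 7.55 and 6.84 in Th2 and 7.20, 6.10, 6.32 and 6.35 in Th17. The spread within Th0 was wider than the distance between any of the group means. Th17 minus Th2 came to -0.61 ± 0.33 (SE; -1.34 to 0.12; limma adjusted p = 0.884). With 3 genes, the counts of this group are small. In Th2 against Th0, 1 was higher and 2 lower (median -0.07), and in Th17 against Th0, 0 were higher and 3 lower (median -0.21). Without Th0 replicate 2 these medians were 0.15 and 0.14, with 2 of 3 genes higher in each comparison, and without Th0 replicate 1 they were -0.26 and -0.47.

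**Figure D2:**
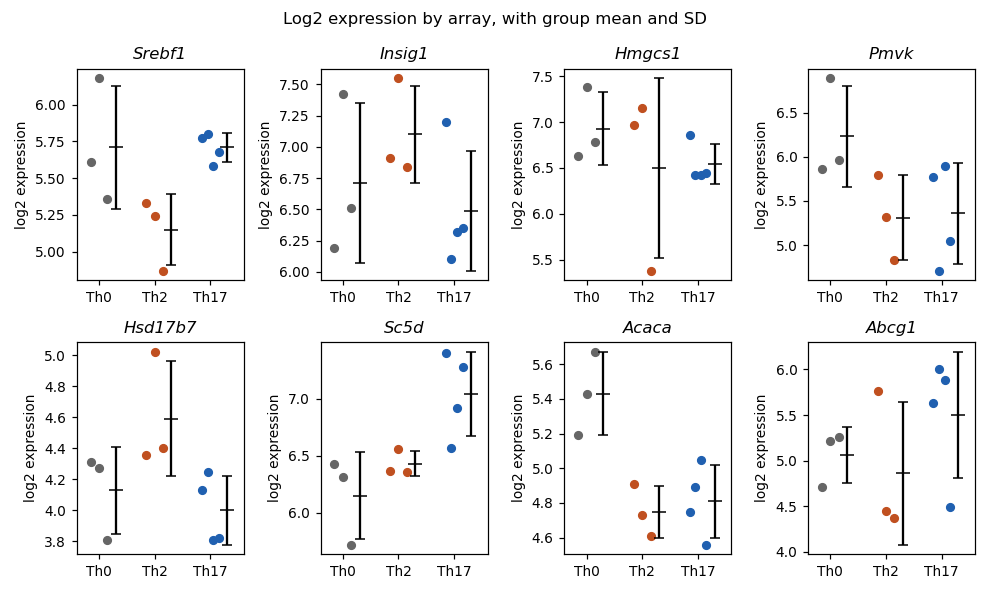
Log2 expression (y axis; each panel has its own scale, which does not start at 0) on each array of the Th0, Th2 and Th17 cultures for 8 genes, with the group mean and SD as bars beside the points. In the Srebf1 panel the 3 Th2 points lie below all others, in the Acaca panel the 3 Th0 points lie above all others, and in the Sc5d panel the 4 Th17 points lie above all others.

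Most cholesterol synthesis genes had lower means in both polarised cultures than in Th0, by amounts that single arrays decided. In Th17 against Th0, 12 of the 15 enzymes were lower and 3 higher (median -0.24, beside -0.02 over all genes, of which 46.8% were higher). In Th2 against Th0, 9 were lower and 6 higher (median -0.32, beside -0.01 and 47.7%). Both comparisons share the Th0 arrays. Without Th0 replicate 2 the counts became 9 lower and 6 higher for Th17 (median -0.06) and 8 lower and 7 higher for Th2 (median -0.12). The Th2 count also turned on Th2 replicate 3, without which 7 were lower and 8 higher (median 0.01), and stood at 4 lower and 11 higher (median 0.18) when Th2 replicates 2 and 3 and Th17 replicate 4 were left out. Without Th2 replicate 1 it was 10 lower and 5 higher, with a median of -0.45, and without Th2 replicate 2 the median was -0.18. Without Th0 replicate 1 the medians were -0.46 for Th17 and -0.42 for Th2, and that of Th17 was -0.37 without Th17 replicate 1, with 14 lower, and -0.16 without Th17 replicate 4.

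Th17 and Th2 did not separate over the pathway. Of the 15 enzymes, 8 were higher in Th17 and 7 lower (median 0.01). The count moved either way with single arrays. It was 2 higher and 13 lower without Th17 replicate 1 (median -0.13), 3 and 12 without Th2 replicate 3 (median -0.19), 7 and 8 without Th17 replicate 3 (median -0.13) and 6 and 9 without Th2 replicate 2 (median -0.05). Quantile normalization of the deposited values a second time gave 4 higher and 11 lower (median -0.05). Without Th2 replicate 1 the median was 0.15, with 9 higher and 6 lower.

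The list means show where these counts came from. Cholesterol genes averaged 5.54, 6.13 and 5.61 on the Th0 arrays, 5.89, 5.58 and 5.21 on the Th2 arrays and 5.79, 5.36, 5.54 and 5.31 on the Th17 arrays. Th0 replicate 2 was the highest array and Th2 replicate 3 the lowest, and the 3 groups overlapped. Beside this, the 14 cell cycle genes measured averaged between 7.61 and 8.07 in Th0, 8.18, 6.71 and 6.61 in Th2 and 7.64, 6.66, 7.33 and 6.86 in Th17. Th2 replicate 1 was the highest in cell cycle genes and Th2 replicate 3 the lowest. Against Th0, the means of 14 of 14 cell cycle genes were lower in Th2 (median -0.77) and of 14 of 14 in Th17 (median -0.76). Limma called 0 of them in either comparison, with 3 and 5 at an unadjusted p under 0.05. The part of cell division in the lipid genes was not tested.

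Of the first enzymes of the mevalonate pathway, Hmgcs1 makes HMG-CoA, the substrate of the rate-limiting reductase. It measured 6.63, 7.38 and 6.78 in Th0, 6.97, 7.16 and 5.38 in Th2 and 6.86, 6.42, 6.42 and 6.45 in Th17. The groups overlapped, and Th2 replicate 3 lay far below the other arrays. The Th2 minus Th0 difference of -0.43 ± 0.40 (SE) became 0.13 without that array. Mvk, which phosphorylates mevalonate, had nearly equal means of 3.78 ± 0.25 (SD, n = 3) in Th0, 3.81 ± 0.04 (SD, n = 3) in Th2 and 3.82 ± 0.18 (SD, n = 4) in Th17. The interval for Th17 minus Th0 ran from -0.31 to 0.39.

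Pmvk, which adds the second phosphate, had the largest negative difference of the list in both comparisons with Th0. It measured 5.86, 6.89 and 5.96 in Th0, 5.79, 5.32 and 4.83 in Th2 and 5.77, 4.71, 5.90 and 5.05 in Th17. Every Th2 array lay below every Th0 array, with a narrow gap, while Th17 replicate 3 reached the Th0 range. The difference was -0.92 ± 0.38 (SE; -1.75 to -0.09; limma adjusted p = 0.767) for Th2 minus Th0 and -0.87 ± 0.35 (-1.65 to -0.10; limma adjusted p = 0.91) for Th17 minus Th0. Without Th0 replicate 2 these were -0.59 and -0.55.

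Mvd, which makes isopentenyl diphosphate, averaged 5.56 ± 0.33 in Th0, 5.25 ± 0.42 in Th2 and 5.33 ± 0.30 in Th17 (SD). Fdps joins the isoprenoid units to farnesyl diphosphate. It measured 6.53, 7.48 and 7.14 in Th0, 6.82, 6.22 and 5.76 in Th2 and 7.04, 5.90, 6.42 and 6.10 in Th17. Its difference was -0.78 ± 0.35 (SE; -1.56 to -0.01; limma adjusted p = 0.778) for Th2 minus Th0 and -0.69 ± 0.33 (-1.41 to 0.04) for Th17 minus Th0. The first replicate of each polarised group lay within the Th0 range, so the groups overlapped. Fdft1, the squalene synthase that commits the pathway to sterols, averaged 7.00 ± 0.21, 6.58 ± 0.44 and 6.61 ± 0.33 (SD) in Th0, Th2 and Th17.

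The enzymes around closure of the sterol rings overlapped in all groups. Sqle, the squalene epoxidase and a flux-limiting step, measured 6.20, 6.46 and 5.95 in Th0, 6.76, 6.50 and 5.65 in Th2 and 6.38, 5.71, 6.12 and 5.86 in Th17. Th2 held both the highest and the lowest array, and no difference exceeded 0.29 in size. Lss, which makes lanosterol, measured 4.65, 5.26 and 4.40 in Th0, 4.58, 4.41 and 4.23 in Th2 and 4.05, 4.62, 3.72 and 4.07 in Th17. Th17 minus Th0 was -0.65 ± 0.24 (SE; -1.19 to -0.12; limma adjusted p = 0.879), with Th17 replicate 2 inside the Th0 range. Without Th0 replicate 2 it was -0.41.

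Cyp51, the lanosterol demethylase, averaged 6.03 ± 0.66 in Th0, 6.18 ± 0.64 in Th2 and 5.73 ± 0.29 in Th17 (SD), with its highest array in Th0 (6.79) and its lowest in Th17 (5.46). Tm7sf2, a sterol C14 reductase, measured 4.44, 4.37 and 4.44 in Th0, 4.59, 4.67 and 4.63 in Th2 and 4.84, 4.04, 4.66 and 4.46 in Th17. The Th2 arrays lay above the Th0 arrays, with little spread in either group, and Th17 spanned both. The difference of Th2 from Th0 was small, at 0.22 ± 0.19 (SE; -0.20 to 0.64; limma adjusted p = 0.876). Nsdhl, which removes the C4 carbons with Hsd17b7, averaged 7.03 ± 0.47, 6.54 ± 0.77 and 6.27 ± 0.55 (SD) in the order Th0, Th2, Th17.

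Hsd17b7, the ketoreductase of C4 demethylation, was the cholesterol gene that stood highest in Th2. It measured 4.31, 4.27 and 3.81 in Th0, 4.36, 5.02 and 4.40 in Th2 and 4.13, 4.25, 3.81 and 3.82 in Th17. Each Th2 array lay above each array of the other groups, by little for Th2 replicates 1 and 3. The difference was 0.46 ± 0.22 (SE; -0.03 to 0.96; limma adjusted p = 0.795) for Th2 minus Th0 and -0.59 ± 0.21 (-1.05 to -0.13; limma adjusted p = 0.653) for Th17 minus Th2, a mean 1.51-fold lower in Th17. Without Th2 replicate 2, the highest array, they were nearer to 0, at 0.25 and -0.38. Ebp, the sterol isomerase, averaged 6.09 ± 0.40 in Th0, 5.63 ± 0.58 in Th2 and 5.99 ± 0.27 in Th17 (SD).

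Sc5d was the cholesterol gene with the highest values in Th17, in contrast to the 12 enzymes whose means were lower there than in Th0. It encodes lathosterol oxidase, the desaturase of the second last step. Its values were 6.43, 6.31 and 5.72 in Th0, 6.37, 6.56 and 6.36 in Th2 and 7.40, 6.57, 6.92 and 7.28 in Th17. All 4 Th17 arrays lay above the Th0 and Th2 arrays, although Th17 replicate 2 exceeded the highest Th2 array by only a small margin. The difference was 0.89 ± 0.23 (SE; 0.39 to 1.39; 1.85-fold; limma adjusted p = 0.471) against Th0 and 0.61 ± 0.23 (0.11 to 1.11; 1.53-fold; limma adjusted p = 0.676) against Th2. It stayed between 0.67 and 1.33 and between 0.49 and 0.91 in the alternative settings, and passed the threshold in none of them. Dhcr7, which completes cholesterol, averaged 5.01 ± 0.60, 4.98 ± 0.42 and 4.82 ± 0.13 (SD) in Th0, Th2 and Th17.

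The 7 fatty acid synthesis members mostly had lower means in Th2 than in either other group. In Th2 against Th0, 5 of 7 were lower and 2 higher (median -0.52), and in Th17 against Th2, 6 of 7 were higher (median 0.32). In Th17 against Th0, 5 were lower and 2 higher, but the median was only -0.07 and moved with single arrays, from -0.33 without Th0 replicate 3 to 0.12 without Th17 replicate 4, where 5 were higher. For Th17 against Th2, 4 of 7 were higher (median 0.16) without Th2 replicate 3, 6 of 7 (median 0.16) without Th17 replicate 1 and 5 of 7 (median 0.21) without Th17 replicate 3. The median of Th2 minus Th0 was -0.30 without Th0 replicate 2 and -0.09 without the 3 arrays apart on the first component. Over the 7 genes, arrays averaged 5.31, 5.86 and 5.27 in Th0, 5.29, 5.02 and 4.99 in Th2 and 5.72, 5.43, 5.41 and 4.96 in Th17. Th2 replicates 2 and 3 and Th17 replicate 4 were the lowest arrays, and the groups overlapped. Beside this, the T cell markers had lower means in Th2 than in Th0 for 8 of 8 genes (median -0.45) and higher means in Th17 than in Th2 for 8 of 8 (median 0.21), with 0 called by limma and 0 at an unadjusted p under 0.05 in either comparison. On the arrays their mean ran from 9.08 to 9.68 in Th0, from 8.53 to 9.43 in Th2 and from 8.72 to 9.26 in Th17, and its part in the fatty acid genes was not tested.

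Acaca accounted for the clearest separation in this pathway. It encodes acetyl-CoA carboxylase 1, which makes malonyl-CoA and sets the rate of fatty acid synthesis. It measured 5.19, 5.43 and 5.67 in Th0, 4.91, 4.73 and 4.61 in Th2 and 4.75, 4.89, 5.05 and 4.56 in Th17. All Th0 arrays lay above all others, while Th2 and Th17 overlapped. The difference was -0.68 ± 0.18 (SE; -1.08 to -0.29; 1.60-fold lower; limma adjusted p = 0.767) for Th2 and -0.62 ± 0.17 (-0.99 to -0.25; 1.53-fold lower; limma adjusted p = 0.548) for Th17, both against the same Th0 arrays. The 3 groups took up 75.3% of its variance over the arrays, the highest share among the members, whose median was 22.6% beside 19.1% for all genes. Under the alternative settings the differences ran from -0.80 to -0.53 and from -0.90 to -0.50. Both polarised groups, and not Th0, received the antibody against IFNγ, so the cytokines and this antibody cannot be told apart here.

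The other lipogenic enzymes differed among themselves. Acly, which supplies cytosolic acetyl-CoA from citrate, measured 6.86, 7.73 and 7.28 in Th0, 7.20, 8.27 and 7.68 in Th2 and 7.65, 7.64, 7.50 and 8.09 in Th17. Its means were higher in both polarised groups, by 0.43 ± 0.29 and 0.43 ± 0.27 (SE), with overlap in both. With single arrays left out these ran from 0.15 (without Th2 replicate 2) to 0.68 (without Th2 replicate 1) for Th2 and from 0.21 (without Th0 replicate 1) to 0.65 (without Th0 replicate 2) for Th17. Fasn, the fatty acid synthase, measured 6.67, 7.12 and 7.49 in Th0, 7.23, 7.54 and 6.59 in Th2 and 7.58, 7.09, 7.23 and 6.18 in Th17. Its group means of 7.09, 7.12 and 7.02 were the closest of all members relative to their spread, with 0.994% of the variance between groups. The interval of Th17 minus Th0, -0.81 to 0.67, leaves room for differences of that size.

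The desaturases and the elongase spread widely between arrays of a group. Scd1, the desaturase that makes oleic acid, measured 3.43, 3.54 and 2.68 in Th0, 2.67, 2.73 and 2.67 in Th2 and 3.05, 2.54, 3.35 and 3.10 in Th17. Th0 replicates 1 and 2 were the highest and Th0 replicate 3 lay among the Th2 arrays, with Th2 minus Th0 at -0.52 ± 0.25 (SE; -1.07 to 0.03; limma adjusted p = 0.794). Elovl6, which elongates palmitate, ranged from 3.43 to 5.67 within the Th17 group alone.

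Fads1 and Fads2, the desaturases of polyunsaturated fatty acids, had the same order of group means. Fads1 measured 5.92, 6.37 and 6.17 in Th0, 6.45, 5.15 and 4.87 in Th2 and 6.12, 6.20, 6.24 and 5.29 in Th17. The 3 lowest arrays were Th2 replicates 2 and 3 and Th17 replicate 4, those that stood apart on the first component, and the remaining 7 lay between 5.92 and 6.45. Fads2 measured 4.62, 5.48 and 3.64 in Th0, 3.72, 3.27 and 4.51 in Th2 and 5.23, 4.75, 4.12 and 4.03 in Th17. Its arrays overlapped in all groups, and its largest difference was -0.75 ± 0.47 (SE) for Th2 minus Th0. This was -0.30 without Th0 replicate 2, -0.47 without Th2 replicate 2 and -1.22 without Th0 replicate 3. Group means were 6.15, 5.49 and 5.96 for Fads1 and 4.58, 3.83 and 4.53 for Fads2, in the order Th0, Th2, Th17, and 4.60, 4.09 and 4.61 for Elovl6.

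**Figure D3:**
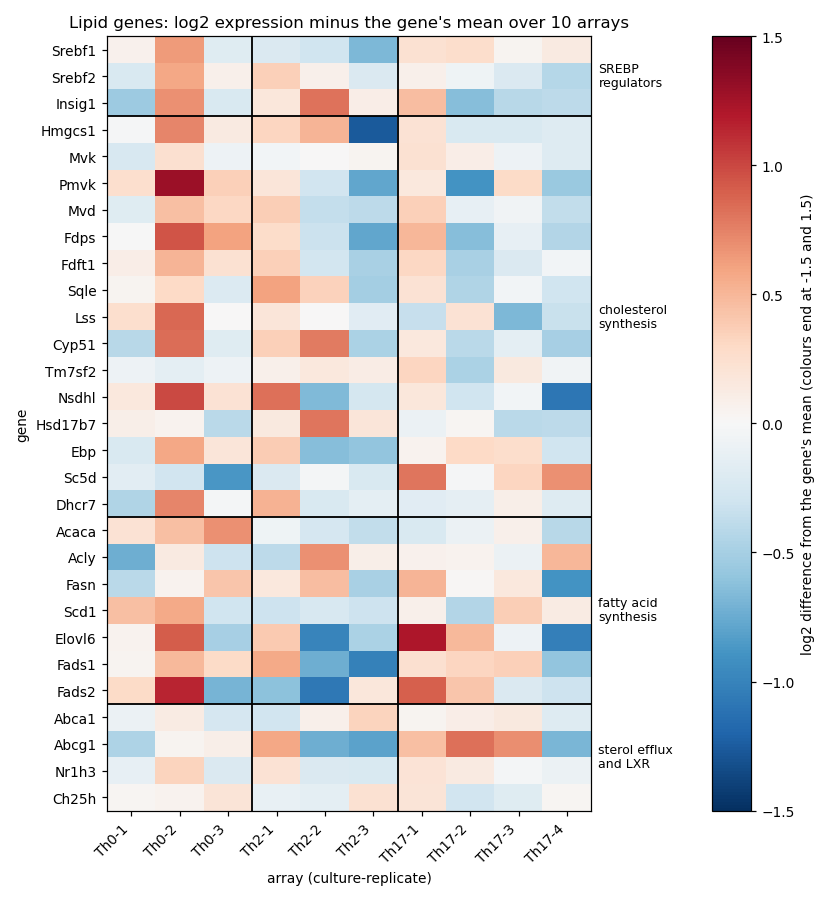
Log2 expression of each gene (y axis, grouped by role) on each of the 10 arrays (x axis), as the difference from that gene's mean over all arrays; red is above and blue below, and colours end at -1.5 and 1.5. The column of Th0 replicate 2 is red for most genes, the Sc5d line is red in Th17, and the Acaca line is red in Th0.

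Sterol efflux genes showed no shared difference between cultures. In Th2 against Th0, 1 of 4 was higher (median -0.08), in Th17 against Th0, 3 of 4 (median 0.08), and in Th17 against Th2, 2 of 4 (median 0.06). With single arrays left out these medians ran from -0.13 to 0.00, from -0.02 to 0.21 and from 0.03 to 0.11. Abca1, which loads cholesterol onto lipid-poor apolipoprotein A-I, measured 3.93, 4.15 and 3.77 in Th0, 3.73, 4.10 and 4.36 in Th2 and 4.06, 4.12, 4.17 and 3.83 in Th17. The means of 3.95, 4.06 and 4.04 lay closer together than the arrays of any group. Abcg1, which exports sterol to high density lipoprotein, measured 4.71, 5.22 and 5.26 in Th0, 5.76, 4.45 and 4.37 in Th2 and 5.63, 6.00, 5.88 and 4.49 in Th17.

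The Abcg1 values differed widely within the polarised groups, with Th2 replicates 2 and 3 and Th17 replicate 4 at the bottom. Th17 minus Th2 was 0.64 ± 0.41 (SE; -0.25 to 1.53; limma adjusted p = 0.911) and Th17 minus Th0 0.44 ± 0.41. The second turned to -0.18 without Th0 replicate 1 and Th17 replicates 2 and 3, the 3 arrays with the highest mean of 8 basophil and mast cell markers (5.74 to 6.78, beside 3.17 to 4.21 on the others). That mean ranged from 3.29 to 6.78 in Th0, from 3.17 to 4.06 in Th2 and from 3.33 to 5.75 in Th17. The arrays left out include the 2 highest for Abcg1 itself (Th17 replicates 2 and 3, 6.00 and 5.88) and its lowest Th0 array (Th0 replicate 1, 4.71). The part of such cells in the Abcg1 values was not tested. Nr1h3, which encodes LXRα, measured 2.90, 3.36 and 2.81 in Th0, 3.24, 2.81 and 2.80 in Th2 and 3.23, 3.16, 3.00 and 2.94 in Th17. Ch25h, which makes 25-hydroxycholesterol, measured 3.04, 3.06 and 3.21 in Th0, 2.90, 2.86 and 3.24 in Th2 and 3.21, 2.73, 2.83 and 3.04 in Th17. Both genes overlapped in all 3 groups. Together with Scd1, they are the 3 members with a mean below the median gene mean of 3.55, and the values used here carry no call of whether a gene was above background.

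Counted over all 29 members, the arrays of Th2 and Th0 did not overlap for 5 genes, 2 higher in Th2 (Tm7sf2 and Hsd17b7) and 3 lower (Pmvk, Acaca and Srebf1). This is 17.2% of the members, beside 8.43% of all genes, of which 4.48% were higher and 3.94% lower. The Th17 and Th0 arrays did not overlap for 2 genes (Sc5d higher and Acaca lower), 6.9% of the members beside 7.57% of all genes (3.22% higher and 4.35% lower). Th17 and Th2 arrays did not overlap for 3 genes (Srebf1 and Sc5d higher, Hsd17b7 lower), 10.3% beside 5.6% (2.6% higher and 3.0% lower). The last 2 shares are within 2 genes of the share over all genes. Members varied more between arrays than genes in general, with a median SD over the 10 arrays of 0.41 beside 0.26, and 26 of 29 had a mean above the median gene.

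Single arrays stood apart within their groups over most of the members. On Th0 replicate 2, 14 of the 15 cholesterol genes, all 7 fatty acid genes and all 3 regulators lay above the mean of the other Th0 arrays (medians 0.60, 0.49 and 0.70), and 3 of 4 efflux genes (median 0.27). It was the highest of all 10 arrays for 16 of 29 members and for 11 of the 15 cholesterol genes, beside 8.46% of all genes and 11.9% of the genes above the median mean. After a second quantile normalization, whose use on single arrays was chosen after the data were seen, 14 of 15 cholesterol genes still lay above the other Th0 arrays (median 0.46) and 9 of them were highest there. The fatty acid genes above the other Th0 arrays fell to 5 of 7 (median 0.47), with 3 of 3 regulators (median 0.52) and 4 of 4 efflux genes (median 0.23). Over all 29 members, 14 were then highest on this array. Among genes above the median mean, 60.1% lay above the other Th0 arrays in the deposited values and 49.4% after the second normalization. This array also had the highest mean of all 10 for the markers of T cells (9.68), B cells (4.36) and CD8 T and NK cells (5.49). It was the highest array for 6 of 8 T cell markers but for 2 of 8 B cell markers, whose mean on Th17 replicate 1 was 4.35. In the last list it was the highest for 3 of 6 (Cd8a, Cd8b1 and Gzma), and the NK markers Klrb1c (2.61) and Ncr1 (3.63) were not raised. Klrd1, also of that list, was 4.85 there, above the other Th0 arrays (3.69 and 3.89) and the Th2 arrays (3.70 to 3.99). It was higher on the Th17 arrays (5.84 to 7.17). The part of such cells in the lipid genes was not tested.

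The polarised groups also held such arrays. On Th17 replicate 1, 24 of 29 members lay above the other Th17 arrays (median 0.34), beside 61.3% of the genes above the median mean, and 23 (median 0.31) beside 50.1% after the second normalization. The mean of 8 B cell markers was 4.35 on that array, the highest of the 10 for 3 of them (Ighm at 10.41, Cd79a and Cd79b). Others, such as Ms4a1 at 2.70 and Cr2 at 2.69, were low there. The mean of 10 myeloid markers was 4.38. That array was the highest for 4 of these (S100a8 at 7.16, S100a9, Lyz2 and Cd68) and the lowest for Adgre1 (2.89). The part of such cells was not tested. Most members were low on Th17 replicate 4 and Th2 replicate 3, as were most genes above the median mean. On Th17 replicate 4, 5 of 29 members lay above the rest of the group, beside 36.1% of the genes above the median mean, and 10 beside 49.1% after the second normalization. On Th2 replicate 3, 4 of 29 lay above, beside 29.8%, and 9 beside 48.4% after it. It was the lowest of the 10 arrays for 8 of 29 members, beside 22.7% of the genes above the median mean, and for 5 after the second normalization. Th2 replicate 1 was above its group for 11 of 15 cholesterol genes (median 0.70), beside 64.3% of the genes above the median mean, and for 11 (median 0.30) beside 50.2% after it.

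**Figure D4:**
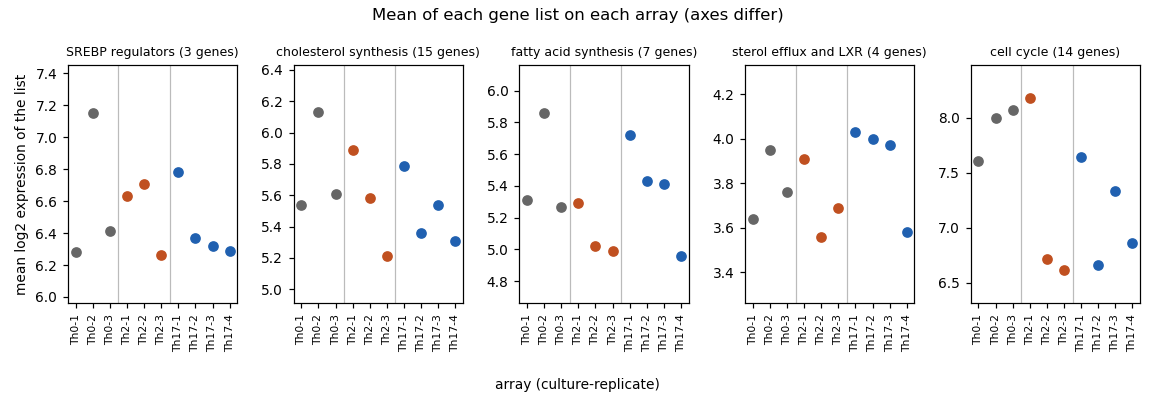
Mean log2 expression (y axis; each panel has its own scale, which does not start at 0) of 4 gene groups and, for comparison, of 14 cell cycle genes on each of the 10 arrays (x axis). Th0 replicate 2 is the highest array for regulators (7.15), cholesterol genes (6.13) and fatty acid genes (5.86), and Th2 replicates 2 and 3 and Th17 replicate 4 have the lowest means for fatty acid genes.

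Genes of the same pathways outside the list gave no further calls. Of the other genes of sterol synthesis, uptake and trafficking, 13 of 19 were measured, and limma called 0 in each comparison, with 0, 1 and 1 at an unadjusted p under 0.05 in Th2 against Th0, Th17 against Th0 and Th17 against Th2. Npc1, which moves cholesterol out of lysosomes, measured 4.98, 4.45 and 4.59 in Th0, 5.17, 5.07 and 4.89 in Th2 and 5.41, 5.21, 5.30 and 6.27 in Th17. Every Th17 array lay above all others, and Th17 minus Th0 was 0.87 ± 0.25 (SE; 0.33 to 1.42; limma adjusted p = 0.582). Msmo1, the C4 methyl oxidase that works before Nsdhl and Hsd17b7, had means of 5.77 ± 0.29 in Th0, 6.22 ± 0.28 in Th2 and 5.70 ± 0.26 in Th17 (SD), the same order as Hsd17b7. Erg28 differed by -0.31 ± 0.17 (SE) in Th2 minus Th0, and Mbtps2, a protease that releases SREBP, by 0.31 ± 0.20 in Th17 minus Th0.

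Of the other fatty acid genes 14 of 16 were measured and 0 called, with 1 at an unadjusted p under 0.05 in each comparison. They did not share the lower means of the fatty acid members in Th2 against Th0, with 8 higher and 6 lower (median 0.07). In Th17, 9 were higher and 5 lower against Th0 (median 0.11), and 9 and 5 against Th2 (median 0.12). Hsd17b12, the ketoreductase of fatty acid elongation, measured 6.48, 6.78 and 6.54 in Th0, 6.98, 7.57 and 7.36 in Th2 and 6.76, 6.85, 6.56 and 7.03 in Th17. Th2 lay above Th0 on every array, by 0.70 ± 0.19 (SE; 0.28 to 1.12; limma adjusted p = 0.767). In Th2 minus Th0 Hacd3, the dehydratase of elongation, differed by 0.56 ± 0.28. In Th17 minus Th0 Elovl7, an elongase, differed by 0.48 ± 0.19 and Acss2, which makes acetyl-CoA from acetate, by 0.44 ± 0.25. The Elovl7 mean over the arrays, 3.02, was below the median gene mean of 3.55, and its Th17 arrays (2.81 to 3.64) overlapped Th0 (2.54 to 2.92). In Th17 minus Th2 the citrate carrier gene Slc25a1 differed by 0.65 ± 0.35.

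Of the other LXR targets and oxysterol enzymes 13 of 14 were measured and 0 called, with 0, 1 and 1 at an unadjusted p under 0.05 in the order given. Rxra, the partner with which LXR binds DNA, measured 5.01, 5.09 and 5.67 in Th0, 5.66, 5.15 and 5.10 in Th2 and 4.85, 4.59, 4.54 and 4.72 in Th17. The Th17 arrays lay below all others, by -0.58 ± 0.20 (SE; limma adjusted p = 0.793) against Th0 and -0.63 ± 0.20 (limma adjusted p = 0.60) against Th2. Gpr183, the oxysterol receptor that guides lymphocytes, differed by -0.68 ± 0.38 in Th17 minus Th2. Mylip, which degrades the LDL receptor, differed by 0.41 ± 0.32 and Lpcat3 by -0.28 ± 0.24 in Th2 minus Th0. Cyp7b1, whose mean over the arrays of 2.96 was below the median gene mean, differed by -0.23 ± 0.16 in Th17 minus Th0.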

How the data were processed

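The values are log2 values that the authors deposited, computed with RMA (background correction, quantile normalization and summarization) in Affymetrix Expression Console 1.3.0.187, per the submitters' processing notes. The sources used here name no build for the probe sets. Groups and replicate numbers came from the sample titles; the description of Th2 replicate 3 carries the number 4. Of 41345 probe sets, those with 1 symbol were used, 1 for each gene (the highest by mean of the 10 arrays), which left 22180 genes with no filter on low values. RMA narrows differences of weak probe sets, and the number of arrays limits the precision.

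For each gene, limma 3.58.1 in R 4.3.3, tested on simulated data, fitted the 3 group means on the 10 arrays (7 residual degrees of freedom) with eBayes moderation. Two-sided p-values were adjusted in each contrast (Benjamini-Hochberg, 22180 genes), with calls at an adjusted p under 0.05. The members and lists, their split and the alternatives were chosen with earlier results of these data known. Every array value is given for members whose groups do not overlap, for the 4 of each role with the smallest p and for Srebf1, Srebf2, Insig1, Hmgcs1, Sqle, Fasn, Scd1, Abca1, Abcg1 and Ch25h; Fdps, Acly, Npc1, Hsd17b12 and Rxra were added after their values were seen. Of the other pathway lists, the 2 genes with the smallest p in each comparison are named. Motifs were searched in the 250 bases before the start in RefSeq promoter windows of GRCm38.p6.

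The 19 alternatives were the mean of all probe sets, a filter on low values, a second quantile normalization, a mean-variance trend, array weights, a fit on the 2 groups compared, a replicate block, leaving out each of the 10 arrays, and leaving out 2 sets of 3 arrays: those apart on the first principal component and those high in basophil markers.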

Additional observations from a re-analysis of the deposited data

Results flagged for a closer look

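In 4 cases the highest or lowest of the 4 Th17 arrays lay farther from its nearest neighbour, as a share of the group's range, than Dixon's 95% critical value for 4 samples. Chance gives this in about 1 in 20 groups, and the 29 genes and the means of the 4 roles were examined. Hmgcs1 was highest on Th17 replicate 1, at 6.86, with the gap making 0.921 of the range. The mean of the 3 regulators was also highest on Th17 replicate 1, at 6.78, with 0.837. Fads1 was lowest on Th17 replicate 4, at 5.29, with 0.874, and so was the mean of the 4 sterol efflux and LXR genes, at 3.58, with 0.867. Groups of 3 arrays were not examined in this way, so Hmgcs1 on Th2 replicate 3 (5.38) has no such value.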

How the results depend on the processing

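No member was called under any of the 19 alternatives (18 for Scd1, Nr1h3 and Ch25h, which the filter on low values removes), and 39 of 87 member differences kept their sign in all that were run; 45 lay within 1 SE of 0 and have no direction to lose. Without Th2 replicates 2 and 3 and Th17 replicate 4, which leaves 1 Th2 array assumed to vary like the other groups, Th2 minus Th0 turned to 0.03 for Hmgcs1, 0.17 for Mvd, 0.08 for Fdft1, 0.37 for Nsdhl, 0.22 for Ebp, -0.09 for Acly and 0.30 for Fads1, and Th17 minus Th2 to -0.19 for Ebp and -0.27 for Fads1. The same setting gave medians of 0.18 (cholesterol) and -0.09 (fatty acid) in Th2 minus Th0 and -0.37 (cholesterol) in Th17 minus Th2, and called 2 genes of all in Th2 minus Th0 and 46 in Th17 minus Th0. Leaving out single arrays moved Hmgcs1 in Th2 minus Th0 between -0.76 and 0.13, and the genes called from 0 to 431 in that comparison, from 2 to 36 in Th17 minus Th0 and from 3 to 298 in Th17 minus Th2, with all 3 highest counts reached without Th2 replicate 1. The filter on low values, which leaves Abca1 and Abcg1 for efflux, gave efflux medians of 0.27 (Th17 minus Th0) and 0.31 (Th17 minus Th2). Without the 3 arrays high in basophil markers, Abcg1 in Th17 minus Th0 turned to -0.18, and 3 and 6 genes were called in Th17 minus Th0 and Th17 minus Th2. Array weights gave 60 and 330 and the replicate block 8 and 11 in the same comparisons, and the second quantile normalization 30 in Th17 minus Th2. With the replicate block, which used the numbers in the titles, no member was called. By these numbers, deviations of same-numbered arrays from their group means correlated between -0.309 and 0.296, with 1 of 9 pairs over 0.1. Pairs with unlike numbers correlated between -0.58 and 0.494, with 8 of 24 over 0.1. The highest, 0.494, was Th2 replicate 3, whose description carries the number 4, with Th17 replicate 4. Whether the arrays were paired cannot be decided from this, since the numbers differ between title and description. Apart from the filter, whose genes are fewer by construction, the cause of the changes under the alternatives was not tested.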
